A study of Mus musculus with 6 samples.

Results

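Notch signalling passes between neighbouring cells. A ligand of the Delta or Jagged family on 1 cell binds a Notch receptor on the next, the receptor is cut by an ADAM protease and by gamma-secretase, and its freed intracellular part joins the DNA-binding protein RBPJ to switch on repressors of the HES and HEY families. In skeletal muscle this pathway is known for holding satellite cells, the muscle stem cells, in an undifferentiated state and for restraining myoblast differentiation. The genes described here are 10 members of the pathway, chosen by name and with earlier results of these data known. They are the ligands Dll1, Jag1 and Jag2, the receptors Notch1, Notch2 and Notch3, the target genes Hes1, Hey1 and Heyl, and Numb. Numb is an adaptor that counters Notch receptors. The 10 genes were read by 19 of the 45101 probe sets on the array, taking every probe set whose annotation gives only that gene symbol.

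Affymetrix arrays were run on primary mouse myoblasts, the precursors of muscle fibres, in 2 groups of 3. The LncMyoD shRNA group had been infected with lentivirus carrying short hairpin RNA (shRNA) sequences against the long non-coding RNA LncMyoD in a tetracycline-regulated, puromycin-selectable vector, and the control group is labelled only as control, without naming what it received. All samples are labelled as 21 days old, and the labels name no strain, sex or genetic modification. The labels describe a growth medium with serum and basic fibroblast growth factor and a differentiation medium with horse serum, but not which one the profiled cells were in. The replicates are called biological, but nothing ties them to distinct mice or dishes. The p-values therefore cover array-to-array spread alone, part or all of which may be technical. LncMyoD itself was not analysed here, so the groups rest on their labels.

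Each value is the authors' normalized log2 signal of a probe set, and each difference is LncMyoD shRNA minus control. The 9 myogenic markers examined were all bright enough to be tested. Of these, Pax7, Myf5 and Cdh15, which mark satellite cells and myoblasts, were higher in the shRNA arrays (differences of 0.66, 0.62 and 0.40), and Mymk, Myog and Acta1, which mark differentiating muscle cells, were lower (-0.24, -0.13 and -0.088). Myod1, Des and Mylpf did not pass. The markers that passed changed in the same comparison as the Notch genes described next, and their part in the result was not tested. Acta1 did not pass in a fit that kept the low signals (limma adjusted p = 0.0511). Of the markers of other cell types, all 8 of endothelium lay among the signals left out as low, as did Rgs5 of pericytes, Ptprc of leukocytes and Sox10 of Schwann cells. Of 6 tested pericyte and smooth muscle markers, 0 passed the test. Des is among these 6 and also among the 9 myogenic markers. The others, Abcc9, Cspg4, Pdgfrb, Myh11 and Kcnj8, averaged 8.86, 7.85, 7.74, 7.30 and 6.79 over all arrays, above the filter. Of 3 Schwann cell markers with a probe set, 2 were tested and neither passed. S100b averaged 6.61 in shRNA arrays and 6.71 in control arrays, and Ngfr 8.71 in both. Of 6 fibroblast markers with a probe set, 3 were tested, of which Pdgfra was higher (difference of 0.89) and Col1a1 and Col3a1 were lower. The summed linear signal of all 6 ran from 1629 to 1808 in shRNA arrays and from 2121 to 2447 in control arrays. Col3a1 made up most of that sum, with log2 means of 10.3 in shRNA arrays and 10.8 in control arrays. Of 5 leukocyte markers only Cd68 was bright enough to be tested, and it was higher. The part of these cells in the results was not tested, and in such bulk RNA fewer cells of a type and less RNA per cell cannot be told apart. The 3' to 5' log2 signal ratio of the actin control probe sets averaged 0.55 ± 0.017 in shRNA arrays and 0.51 ± 0.018 in control arrays and that of Gapdh 0.23 ± 0.038 in shRNA arrays and 0.14 ± 0.045 in control arrays (SD, n = 3 each). Either ratio gave a two-sided exact permutation p of 0.1, which is the lowest value 20 assignments can reach, and their part in the results was not tested either.

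All 3 ligands and 2 of the 3 receptors were higher in the LncMyoD shRNA arrays, together with the target gene Hey1, while no tested member was called lower. Of all genes tested, 35.7% were called higher and 22.8% lower. Jag1 rose 2.05-fold (95% interval 1.79 to 2.35), Dll1 1.60-fold (1.42 to 1.80), Hey1 1.49-fold (1.32 to 1.69), Notch3 1.33-fold (1.23 to 1.45), Notch2 1.23-fold (1.18 to 1.30) and Jag2 1.15-fold (1.08 to 1.22), each on the probe set with the highest mean signal of its gene. Hes1, Notch1 and Numb did not pass the threshold, nor did the other tested probe sets of Jag1, Jag2 and Notch2. Heyl lay too low to be tested. A probe set passed when its limma p-value, adjusted by the Benjamini-Hochberg method over all 27022 probe sets tested, was below 0.05.

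Of the 19 member probe sets, 14 had a mean signal above the low-signal filter, and 7 of these rose and 0 fell. Across all probe sets tested, 53.9% were called, 30.4% higher and 23.5% lower. By gene, 6 of the 9 that could be tested rose and 0 fell. Of all 12408 genes tested, 58.5% were called, 35.7% higher and 22.8% lower. The members were chosen with earlier results of these data known, so these counts describe the list and test nothing. The median difference was 0.30 on the log2 scale over the 9 genes and 0.046 over all genes. Jag1 stood far out in the distribution of all genes, 1.99% of which had a larger increase. The corresponding shares were 5.97% for Dll1, 8.24% for Hey1, 14.5% for Notch3, 21.4% for Notch2 and 31.1% for Jag2. Numb and Notch1 lay near the middle, with 50.7% and 51.8% of all genes above them.

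**Figure D1:**
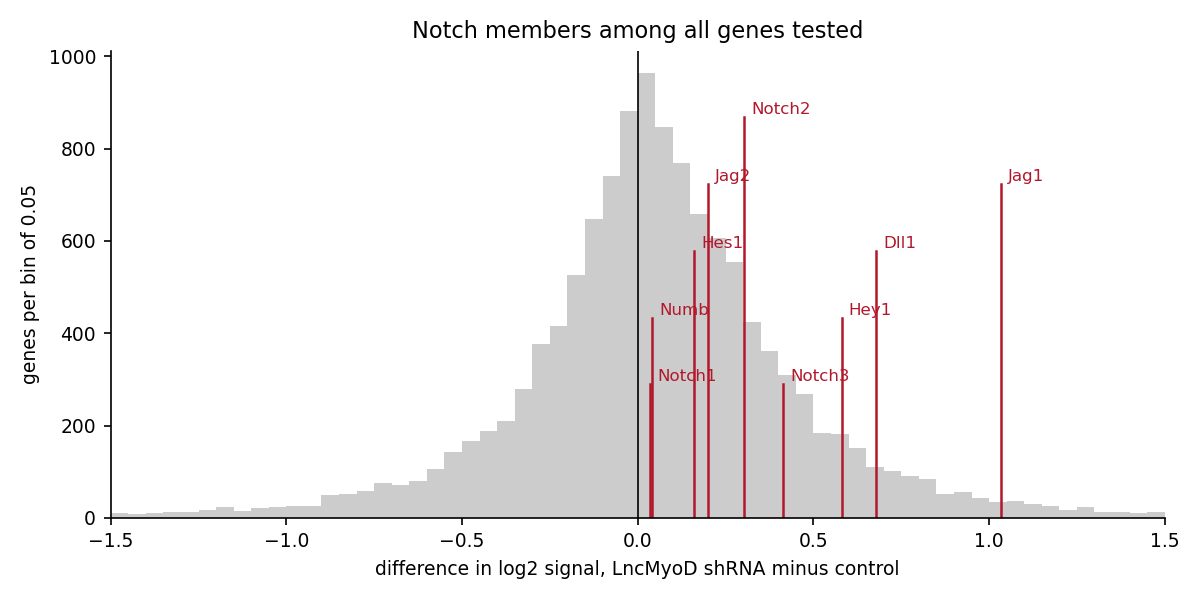
Differences in log2 signal (LncMyoD shRNA minus control, horizontal axis) of all 12408 genes tested, counted in bins of 0.05 (grey bars, vertical axis), with the 9 tested Notch pathway genes as red lines whose heights carry no value. Jag1, Dll1 and Hey1 lie in the upper tail and Notch1 and Numb near 0, and 45 genes below -1.5 and 57 above 1.5 are outside the plotted range.

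Promoters of the members were searched for short DNA motifs because HES and HEY proteins, the repressors at the end of the pathway, bind such motifs, and the 4 promoters that hold a match are printed. They were picked for the match, and not for the change of their genes: Notch3 rose too, and its promoter held none. RefSeq promoters on GRCm38.p6, from 250 bases before to 50 bases after a gene's start, were found for 7 of the 10 members, with 10 promoters in all; Hes1, Hey1 and Heyl had none in the table. The letters CACGCG, a class of site that HES proteins are known to bind, were present on either strand in 4 of these 10 promoters, 1 each of Jag1, Dll1, Jag2 and Notch2. The same letters were present in 9.27% of all 32851 promoters, and in 22.9% of the 9690 promoters with a GC content of 60% or more. Not all member promoters reach that GC content. Among those that hold CACGCG it was 55.7% for Jag1, 56.3% for Dll1, 86.0% for Jag2 and 73.0% for Notch2. Each promoter is printed 5′ to 3′ on the gene's own strand, with these matches in capitals (CACGCG, or CGCGTG where it lies on the opposite strand). The positions are chr2:137116471-137116770 (minus strand) for Jag1, chr17:15376883-15377182 (minus strand) for Dll1, chr12:112929446-112929745 (minus strand) for Jag2 and chr3:98013288-98013587 (plus strand) for Notch2.
Jag1: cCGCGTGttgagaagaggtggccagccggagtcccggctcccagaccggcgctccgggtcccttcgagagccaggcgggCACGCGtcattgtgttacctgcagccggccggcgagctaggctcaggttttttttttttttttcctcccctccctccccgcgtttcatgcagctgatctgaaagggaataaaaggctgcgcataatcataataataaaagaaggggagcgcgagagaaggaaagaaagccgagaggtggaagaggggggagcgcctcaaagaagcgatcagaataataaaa
Dll1: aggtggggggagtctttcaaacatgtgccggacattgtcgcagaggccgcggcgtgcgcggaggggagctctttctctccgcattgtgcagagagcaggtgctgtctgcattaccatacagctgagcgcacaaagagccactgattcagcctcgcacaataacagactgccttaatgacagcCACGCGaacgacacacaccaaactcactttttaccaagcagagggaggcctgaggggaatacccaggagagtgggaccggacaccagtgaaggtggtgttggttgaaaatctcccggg
Jag2: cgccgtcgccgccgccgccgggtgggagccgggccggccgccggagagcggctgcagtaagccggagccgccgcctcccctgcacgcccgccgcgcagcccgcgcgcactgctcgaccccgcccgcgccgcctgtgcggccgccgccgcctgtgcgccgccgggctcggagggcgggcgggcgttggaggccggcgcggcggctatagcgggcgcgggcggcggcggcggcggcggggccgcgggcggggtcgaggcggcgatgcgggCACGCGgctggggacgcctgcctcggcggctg
Notch2: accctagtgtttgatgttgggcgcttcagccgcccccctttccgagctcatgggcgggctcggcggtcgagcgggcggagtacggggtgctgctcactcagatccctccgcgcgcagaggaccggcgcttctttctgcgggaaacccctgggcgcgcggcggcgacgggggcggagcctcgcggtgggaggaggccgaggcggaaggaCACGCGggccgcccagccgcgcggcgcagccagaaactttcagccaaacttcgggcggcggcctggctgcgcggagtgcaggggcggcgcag

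Counted from the gene's start, the matches begin at -249 and -171 in Jag1, at -68 in Dll1, at 19 in Jag2 and at -42 in Notch2. The Jag2 match therefore lies after the start, in the transcribed part, shortly behind the letters atg. Whether it is coding sequence was not examined. The other Dll1 promoter and those of Notch1, Notch3 and Numb held no match. The core of the RBPJ site, TGGGAA or its reverse complement TTCCCA, was present in 0 of the 10 member promoters and in 25.6% of all promoters (18.6% of those with the same minimum GC content). The E-box CACGTG, which reads the same on both strands, was present in 0 of the 10 and in 7.15% of all promoters (10.8% at that GC content). A match is a description of the letters, and a window without one says nothing about whether a factor binds the gene elsewhere.

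Of the ligands, Jag1 changed most among the members. On its brightest probe set, 1434070_at, the signal was 10.04, 10.02 and 9.91 in the LncMyoD shRNA arrays, against 9.17, 8.91 and 8.79 in control arrays. Every shRNA array lay above every control array, and control 1 was the highest of the controls. The difference was 1.03 (SE 0.090, limma adjusted p = 8.19e-07). The dimmer Jag1 probe set 1421106_at read 6.80, 6.85 and 6.91 in shRNA arrays, against 6.97, 6.04 and 6.31 in control arrays. Control 1 lay above all shRNA arrays there, and the difference of 0.41 (SE 0.19) did not pass (limma adjusted p = 0.0860). With each array left out in turn, the difference ran from 0.21 (without control 2, limma adjusted p = 0.358) to 0.68 (without control 1, limma adjusted p = 0.00124). Only the fit without control 1 passed. The third Jag1 probe set, 1421105_at, averaged 5.87 ± 0.18 in shRNA arrays and 5.90 ± 0.14 in control arrays (SD, n = 3 each), below the lowest mean tested, 6.50, and was not tested.

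Dll1, a Delta-type ligand, had 1 probe set. Its signal was 10.89, 11.06 and 10.99 in shRNA arrays, against 10.48, 10.29 and 10.14 in control arrays. The groups did not overlap, and the difference was 0.68 (SE 0.077, limma adjusted p = 8.81e-06). The control arrays spread more than the shRNA arrays in both Dll1 (SD 0.084 in shRNA arrays and 0.17 in control arrays) and Jag1 1434070_at (0.069 in shRNA arrays and 0.20 in control arrays).

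Jag2, the other Jagged ligand measured, changed less. Its brighter probe set, 1426430_at, read 11.74, 11.77 and 11.75 in shRNA arrays, against 11.54, 11.58 and 11.53 in control arrays. This small difference of 0.20 (SE 0.040, limma adjusted p = 0.000886) was larger than the spread within either group. The dimmer Jag2 probe set 1426431_at averaged 9.66 ± 0.071 in shRNA arrays and 9.55 ± 0.053 in control arrays (SD, n = 3 each), with overlapping arrays and a difference of 0.11 that did not pass (95% interval -0.033 to 0.25, limma adjusted p = 0.184).

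**Figure D2:**
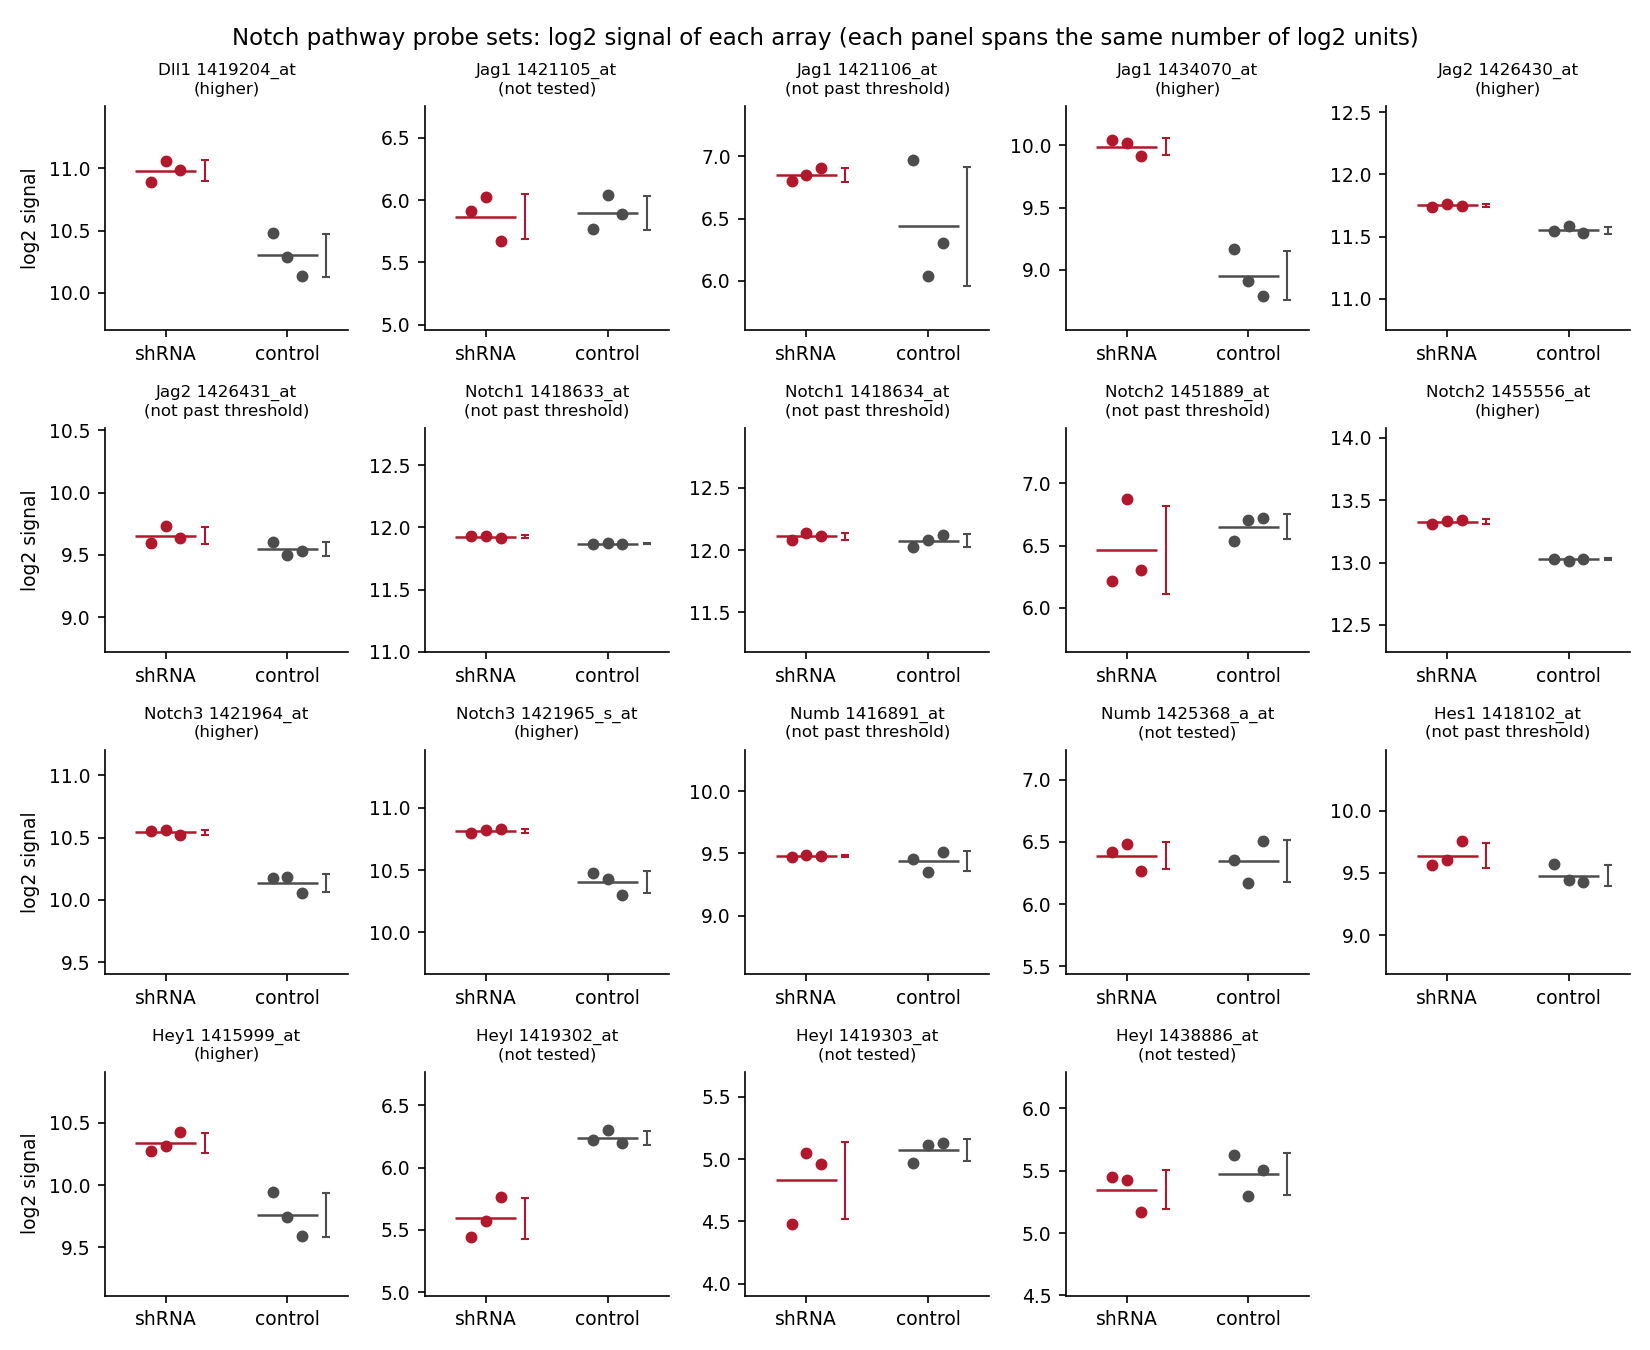
Log2 signal (vertical axis) of each of the 19 member probe sets in the 3 LncMyoD shRNA arrays (red, left) and the 3 control arrays (grey, right), with the group mean as a horizontal line and the SD as a bar beside it. Every panel spans the same number of log2 units around its own middle. The shRNA arrays lie above the control arrays without overlap for Dll1, Hey1, Jag1 1434070_at, Jag2 1426430_at, Notch1 1418633_at, Notch2 1455556_at and both Notch3 probe sets. Of these, only Notch1 1418633_at did not pass. Heyl 1419302_at has its shRNA arrays below its control arrays.

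Of the receptors, Notch3 rose on both of its probe sets by nearly the same amount. Notch3 1421964_at read 10.55, 10.56 and 10.52 in shRNA arrays, against 10.17, 10.18 and 10.05 in control arrays. Notch3 1421965_s_at read 10.80, 10.82 and 10.83 in shRNA arrays, against 10.48, 10.43 and 10.30 in control arrays. The arrays of the groups were apart on both, with differences of 0.41 on each (SE 0.055 each, limma adjusted p = 3.63e-05 and 3.28e-05).

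Notch2 was read by a very bright and a dim probe set, which did not run the same way. On the bright one, 1455556_at, the signal was 13.31, 13.33 and 13.35 in shRNA arrays, against 13.03, 13.02 and 13.03 in control arrays. Replicates of a group lay close together and the groups far apart, and the difference was 0.30 (SE 0.033, limma adjusted p = 5.16e-06). On the dim one, 1451889_at, the signal was 6.22, 6.87 and 6.30 in shRNA arrays, against 6.53, 6.70 and 6.72 in control arrays. The arrays overlapped, and the difference of -0.19 (SE 0.16) did not pass (limma adjusted p = 0.360). Its mean over all arrays, 6.56, was the closest of the members to the filter. Without shRNA array 2, which lay above every other array of either group, the difference was -0.39 (limma adjusted p = 0.0348). That was the only fit with an array left out that passed, and without shRNA array 1 the difference was -0.066 (limma adjusted p = 0.771).

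Notch1, the receptor most studied in satellite cell activation, was nearly level on both probe sets. Notch1 1418633_at read 11.93, 11.93 and 11.91 in shRNA arrays, against 11.86, 11.87 and 11.87 in control arrays. These arrays did not overlap, but the difference of 0.058 was small and did not pass (95% interval -0.023 to 0.14, limma adjusted p = 0.212). Notch1 1418634_at averaged 12.11 ± 0.027 in shRNA arrays and 12.08 ± 0.050 in control arrays (SD, n = 3 each), a difference of 0.035 (95% interval -0.053 to 0.12, limma adjusted p = 0.498). Subtracting the median of the tested probe sets from each array (centring), which lowers every difference by the same amount, gave -0.0064 and -0.029, and quantile normalization gave 0.027 and 0.018. None of these passed. In all, 8 of the 14 tested member probe sets had arrays that did not overlap between the groups, as did 59.5% of all probe sets tested.

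Numb, which sorts Notch receptors away from signalling, did not differ beyond the spread of the arrays. Numb 1416891_at read 9.47, 9.48 and 9.48 in shRNA arrays, against 9.45, 9.35 and 9.51 in control arrays, a difference of 0.041 (95% interval -0.10 to 0.18, limma adjusted p = 0.630). That interval leaves room for a change of up to 1.13-fold upward, and the difference was -0.023 both with the arrays centred and after quantile normalization. The dim probe set 1425368_a_at was not tested and averaged 6.39 ± 0.11 in shRNA arrays and 6.35 ± 0.17 in control arrays (SD, n = 3 each).

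**Figure D3:**
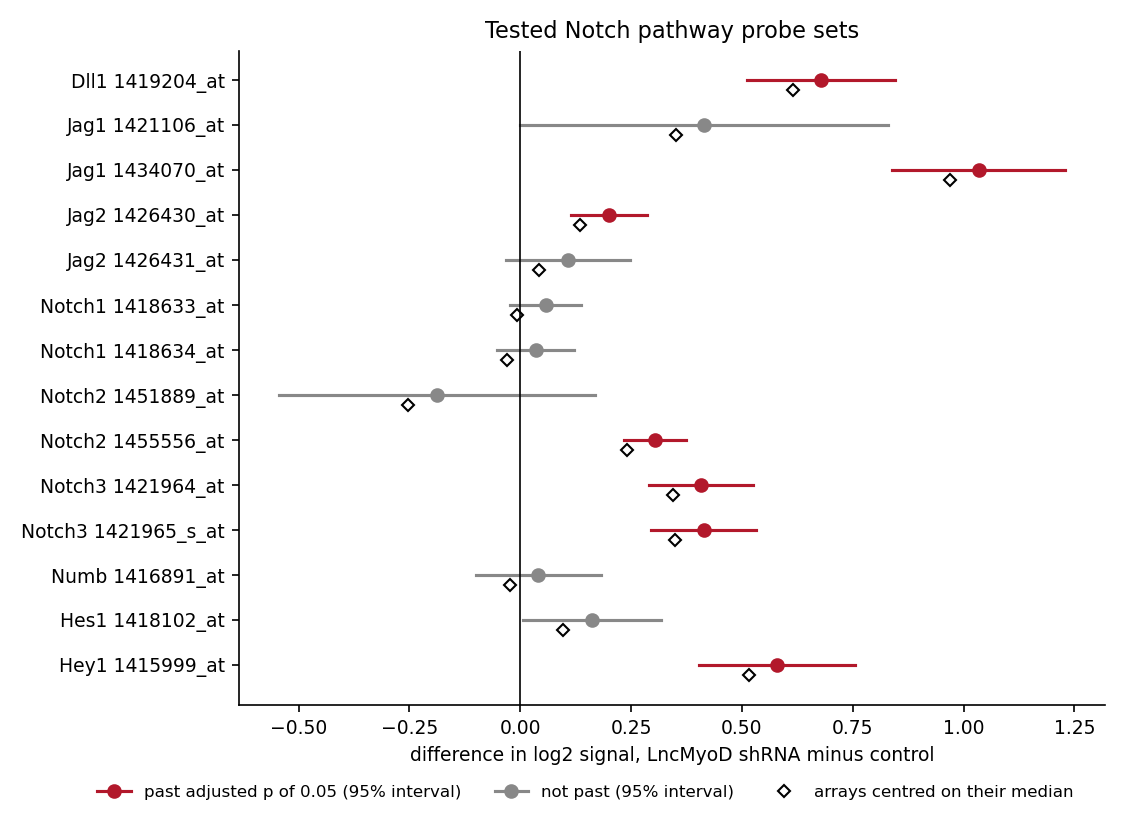
Difference in log2 signal (LncMyoD shRNA minus control, horizontal axis) with its 95% interval for the 14 tested member probe sets (vertical axis), red where the adjusted p is below 0.05 and grey where it is not; open diamonds give the difference after centring each array on its median. The 7 red intervals all lie above 0, from Jag2 at 0.20 to Jag1 at 1.03, and centring moves every value slightly down.

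Of the target genes, Hey1 passed and Hes1 did not, and whether their changes differed from each other was not tested. Hey1, a repressor induced by Notch, read 10.28, 10.31 and 10.43 in shRNA arrays, against 9.94, 9.75 and 9.59 in control arrays. All shRNA arrays lay above all control arrays, and the difference was 0.58 (SE 0.081, limma adjusted p = 5.39e-05). Hes1, the repressor most widely used as a readout of Notch activity, read 9.56, 9.60 and 9.75 in shRNA arrays, against 9.57, 9.44 and 9.42 in control arrays. Control 1 lay above the lowest shRNA array, and the difference of 0.16 did not pass (95% interval 0.0050 to 0.32 before adjustment, limma adjusted p = 0.0762). With each array left out in turn, it ran from 0.10 (without shRNA array 3, limma adjusted p = 0.291) to 0.21 (without control 1, limma adjusted p = 0.0276). Only the fit without control 1 passed.

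Heyl, the third HEY factor, had 3 probe sets, all below the filter. On the least dim, 1419302_at, the signal was 5.44, 5.57 and 5.77 in shRNA arrays, against 6.22, 6.30 and 6.20 in control arrays. The groups did not overlap and the shRNA arrays were the lower ones, the opposite of Hey1, with a difference of -0.65. Both means lie below 6.50, and whether such signals stand above background was not tested. The other Heyl probe sets differed by -0.24 (1419303_at, means of 4.83 in shRNA arrays and 5.07 in control arrays) and -0.12 (1438886_at, 5.35 and 5.47), with overlapping arrays. In a fit without the filter, 1419302_at passed (SE 0.13, limma adjusted p = 0.00111) and the other 2 did not (limma adjusted p = 0.241 and 0.539).

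Control 1 was the highest control array and control 3 the lowest in 5 of the 14 tested member probe sets (Jag1 1434070_at, Dll1, Hey1, Hes1 and Notch3 1421965_s_at). Control 1 was the highest in 8 of the 14, control 2 in 3 and control 3 in 3. The median signal over all tested probe sets was also highest in control 1 (9.46) and lowest in control 3 (9.38), with 9.41 in control 2 and 9.48 in each shRNA array. After centring on these medians the differences were 0.97 for Jag1, 0.61 for Dll1, 0.52 for Hey1, 0.34 and 0.35 for Notch3, 0.24 for Notch2 and 0.14 for Jag2, and all 7 probe sets still passed. Over all genes, centring moved the share of calls that were higher to 49.8%, against 61.0% with the deposited values.

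The genes whose signal followed the 6 arrays most like Jag1, the member with the smallest p, were Vdr (the vitamin D receptor, Pearson r = 0.9998), Prkab1 (a subunit of the energy sensor AMPK, r = 0.9997) and Mras (a small GTPase, r = 0.9991). High correlations were common over 6 arrays in 2 groups: 3564 of 12399 genes had r above 0.9 with Jag1. Vdr averaged 8.51 ± 0.091 in shRNA arrays and 7.01 ± 0.30 in control arrays (SD, n = 3 each).

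Beyond the members, 74 further genes of the pathway were followed by role, of which 60 could be tested. These lists too were chosen with earlier results of these data known. Of these, 27 rose and 16 fell, which is 45% and 26.7%, beside 35.7% and 22.8% of all genes, with a median difference of 0.089. The arrays of the groups did not overlap in 44 of the 60, as in 64.8% of all genes tested. Dlk1 and Dlk2, Notch-like ligands outside the classical family, did not pass, and the endothelial Delta ligand Dll4, with Dll3 and Notch4, was below the filter.

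Among 7 tested genes of the wider HES and HEY family and related targets 1 rose and 4 fell, so 71.4% were called, beside 58.5% of all genes. Nrarp, a Notch-induced gene whose product feeds back on the receptor's intracellular part, rose 1.46-fold. It read 8.53, 8.49 and 8.29 in shRNA arrays, against 7.97, 7.85 and 7.83 in control arrays, without overlap (difference 0.55, SE 0.095, limma adjusted p = 0.000313). Hey2, the closest relative of Hey1, fell: it read 6.92, 6.71 and 6.57 in shRNA arrays, against 7.74, 7.22 and 7.41 in control arrays (difference -0.73, SE 0.15, limma adjusted p = 0.000954). Hes6, a family member known to counter Hes1 and to favour myogenic differentiation, fell by 0.39 (SE 0.053, limma adjusted p = 4.50e-05), with 11.99, 12.05 and 12.06 in shRNA arrays against 12.52, 12.44 and 12.30 in control arrays. Its second probe set fell as well. The related repressors Bhlhe40 and Bhlhe41, which also answer to the circadian clock and to hypoxia, fell by 0.70 (SE 0.071) and 0.42 (SE 0.10). The other tested probe set of Bhlhe41 did not pass. Hes5, a classical target, averaged 6.68 ± 0.021 in shRNA arrays and 6.71 ± 0.13 in control arrays (SD, n = 3 each, limma adjusted p = 0.840), near the filter.

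**Figure D4:**
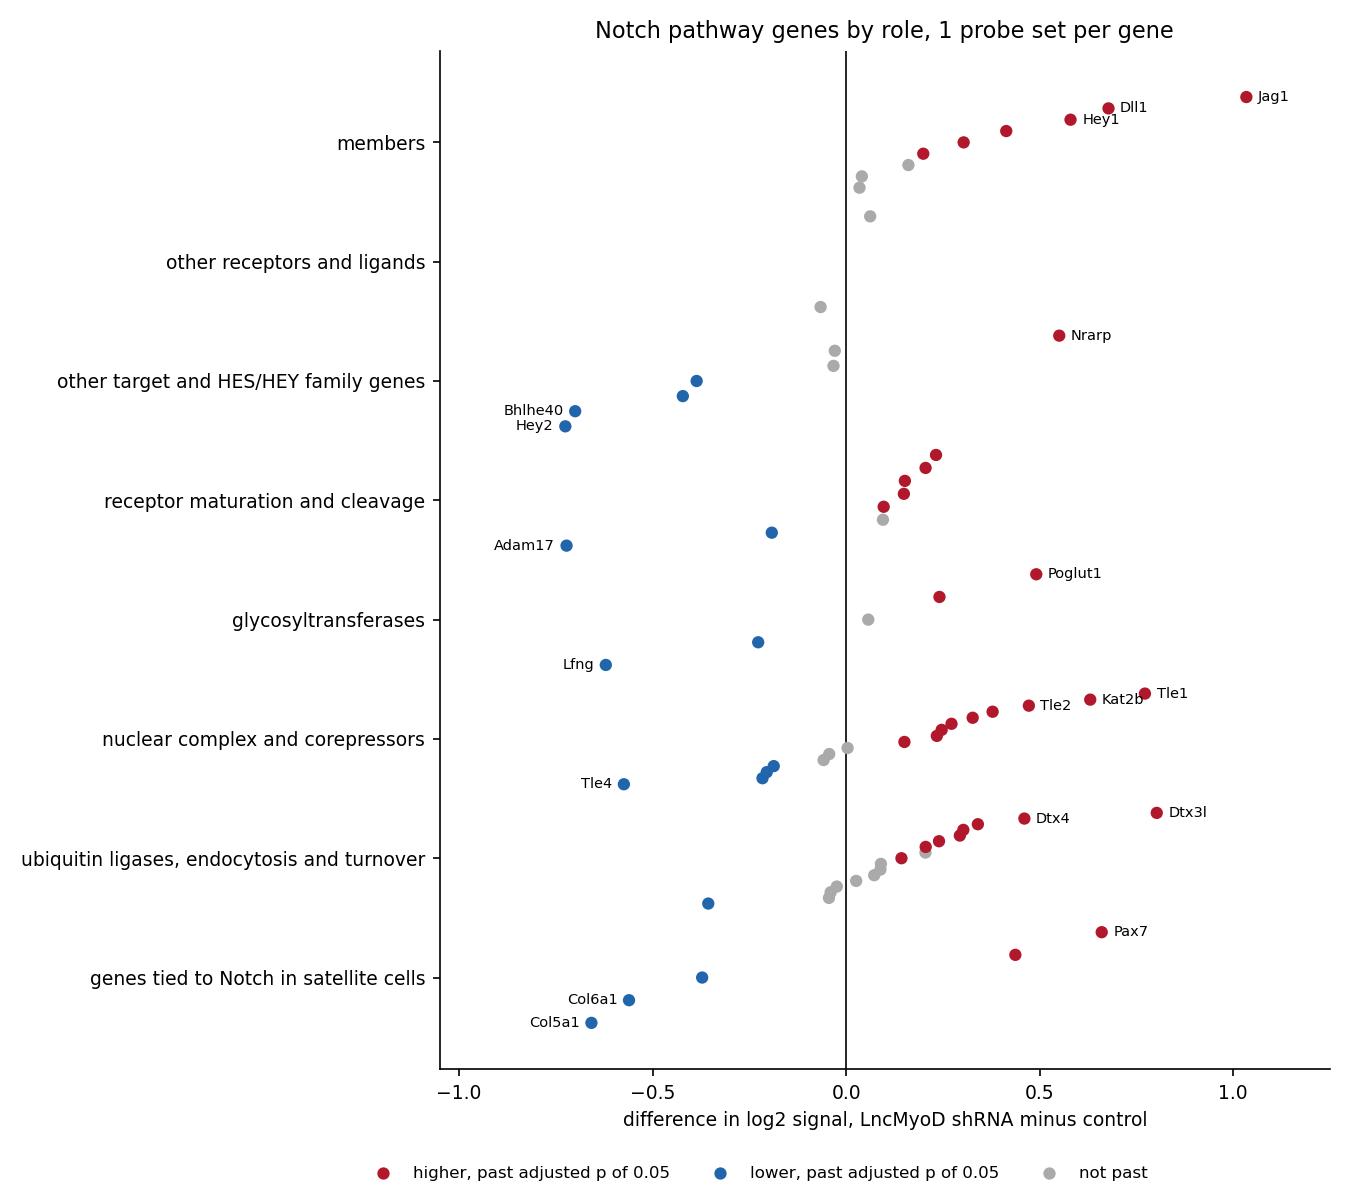
Difference in log2 signal (LncMyoD shRNA minus control, horizontal axis) of each tested Notch pathway gene on its brightest probe set, grouped by role (vertical axis, staggered within a group for legibility) and coloured by whether it was higher, lower or not past the adjusted p of 0.05. Points beyond 0.45 either way are named; the members lie right of 0 (Notch1 and Numb lie left of it after centring, and Numb also after quantile normalization), whereas the other target genes lie mostly left of it, with Nrarp on the right.

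Genes that mature and cut the receptor rose in 5 of 8 tested cases and fell in 2, so 87.5% were called, beside 58.5% of all genes. However, 3 of the 5 increases (Adam10, Furin and Psen2) did not pass with the arrays centred. Over all alternative settings the call was lost in 8 for Furin, 7 for Psen2 and 1 for Adam10. Adam17, a protease able to shed Notch, fell by 0.72 (SE 0.040, limma adjusted p = 1.66e-08), averaging 11.28 ± 0.035 in shRNA arrays and 12.01 ± 0.021 in control arrays, and its other probe set fell too. Adam10, the protease that makes the ligand-dependent cut, rose by 0.15 (SE 0.040, limma adjusted p = 0.00588), with 1 of its 2 other probe sets also higher, but its change of 0.088 with the arrays centred did not pass (limma adjusted p = 0.0816). The gamma-secretase subunits Psenen and Ncstn rose by 0.23 and 0.21, but the other tested probe set of Ncstn did not pass. Aph1a, another subunit, fell by 0.19 (limma adjusted p = 0.0475), but a different probe set of it rose and the call was lost in 9 alternative settings.

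Glycosyltransferases, which modify the receptor's outer part and tune its response to ligands, split evenly, with 2 of 5 higher and 2 lower. That is 80% called, beside 58.5% of all genes. Poglut1, which adds O-glucose, rose by 0.49 (SE 0.052, limma adjusted p = 4.50e-06), whereas Pofut1, which adds O-fucose, fell by 0.23 (SE 0.042, limma adjusted p = 0.000527). Of the 2 other tested probe sets of Pofut1, 1 was also lower. Of the Fringe enzymes, which extend O-fucose, Rfng rose by 0.24 (SE 0.050). Lfng fell by 0.62 (SE 0.15), with 1 other probe set that did not pass.

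In the nuclear complex and its corepressors 9 of 16 tested genes rose and 4 fell, so 81.25% were called, beside 58.5% of all genes. Snw1 was called higher, but not with the arrays centred (limma adjusted p = 0.0571). Rbpj itself, the DNA-binding partner of Notch, averaged 12.65 ± 0.020 in shRNA arrays and 12.70 ± 0.047 in control arrays (SD, n = 3 each, limma adjusted p = 0.349). The acetyltransferase Kat2b rose by 0.63 (SE 0.042, limma adjusted p = 6.65e-08). Of the Groucho-type corepressors that HES proteins recruit, Tle1 rose by 0.77 (SE 0.067, limma adjusted p = 7.98e-07), Tle2 by 0.47 (SE 0.099) and the shorter relative Tle5 by 0.27 (SE 0.040), whereas Tle4 fell by 0.57 (SE 0.043, limma adjusted p = 2.07e-07) and Tle3 by 0.21, with all 3 of its probe sets lower. The corepressor Ctbp1 and the coactivator Crebbp also fell, by 0.19 and 0.22, with 1 of the 3 other tested probe sets of Crebbp also lower.

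Ubiquitin ligases and endocytic genes of the pathway rose in 8 of 17 tested cases and 1 fell, so 52.9% were called, beside 58.5% of all genes. Mib1 and Mib2 were called higher, but each lost the call in 2 alternative settings, which for Mib1 included centring. Dtx3l, a Deltex-family ligase that also belongs to the interferon response, rose by 0.80 (SE 0.052, limma adjusted p = 5.85e-08) and its relative Dtx4 by 0.46 (SE 0.074). Megf10, a receptor of satellite cells that has been tied to Notch, rose by 0.29 (SE 0.051, limma adjusted p = 0.000309). Neurl1a, a Neuralized-type ligase that acts on ligands, fell by 0.36 (SE 0.063), with 1 of its 4 other probe sets also lower. The brightest probe set of Aak1, a kinase of Numb, did not pass (0.026, limma adjusted p = 0.571), but 5 of its 6 other probe sets fell.

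Of 5 tested genes that have been tied to Notch in satellite cells, 2 rose and 3 fell, so 100% were called, beside 58.5% of all genes. The collagen chain genes moved apart: Col5a1 fell by 0.66 (SE 0.049, limma adjusted p = 2.06e-07) on its brightest probe set and on both others, Col6a1 fell by 0.56 (SE 0.13), and Col5a3 rose by 0.44 (SE 0.12, limma adjusted p = 0.00794). Pax7, the satellite cell factor, rose by 0.66 (SE 0.051), and Sdc3, a proteoglycan needed for Notch processing in satellite cells, fell by 0.37 (SE 0.063). The other tested probe set of Sdc3 did not pass. Calcr, the calcitonin receptor of quiescent satellite cells, was below the filter. Both of the fibroblast markers that fell, Col1a1 and Col3a1, are collagens as well (differences of -0.42 and -0.51).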

How the data were processed

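For each array the authors deposited normalized log2 signals, 1 for every probe set. That the scale is log2 was inferred from the values, which ran from 4.48 to 14.6 with equal medians in all 6 arrays, so the authors had aligned the arrays. PLIER and MAS5 are named in the submitters' processing notes, with neither role nor version, and the background correction is not given in the sources consulted. Arrays have no read depth, and their number limits the precision.

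Probe sets were named through the platform annotation (34958 with 1 symbol, 932 with several, 9211 unnamed here). After 64 Affymetrix controls, the dimmest 40% by mean signal (18015 probe sets) were left out, and 27022 were tested with limma 3.58.1 in R 4.3.3 (lmFit, eBayes with a mean-variance trend), with Benjamini-Hochberg adjustment over all of them. The brightest tested probe set stood for a gene, with _x_at probe sets used only for want of another kind. In the wider lists, up to 3 called genes with the smallest p were named, with those against the majority direction, and the genes most like Jag1 were the 3 with the highest Pearson r. Hey2, Bhlhe41, Hes5, Ncstn, Furin, Psen2, Lfng, Rbpj, Dlk1, Dlk2, Snw1, Tle2, Tle5, Mib1, Mib2, Aak1, Col6a1 and the genes under the filter fall outside that rule and were chosen after their values were seen. Errors after ± are SDs; SE is limma's. The calculations were tested on simulated data. Samples with the same replicate number did not deviate together, so the numbers were not used to pair arrays. The members and lists were chosen with earlier results of these data known. All value columns matched a sample. Protein sequences were not used here.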

Additional observations from a re-analysis of the deposited data

How the results depend on the processing

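In 13 alternatives the 7 member probe sets called higher all kept their direction and their call: no low-signal filter, a stricter filter, no variance trend, robust variance, 2 other scalings, the replicate block and each array left out. Jag1 1434070_at ranged from 0.95 to 1.14, Dll1 from 0.60 to 0.77, Hey1 from 0.50 to 0.67 and Jag2 1426430_at from 0.14 to 0.22. The count of member probe sets called lower was 0 as reported, 1 without the low-signal filter (Heyl 1419302_at), and from 0 to 1 with each array left out in turn (1 without shRNA array 2, Notch2 1451889_at). The count of member genes called lower was 0, and 1 without the low-signal filter. Other counts stayed within 1.5 times. Wider pathway calls numbered 22 to 29 higher and 13 to 17 lower over the alternatives.

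Replicate numbers from the labels did not pair the arrays: deviations from the group means correlated at -0.13, -0.062 and 0.031 for equal numbers. With the number as a replicate block, the 7 member probe sets called higher remained 7, and wider pathway calls were 26 higher and 15 lower, against 27 and 16. Without detection calls, low signals such as those of Heyl could not be told from background.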
